A study of Mus musculus with 21 samples.

Results

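The 49 genes whose symbol begins with Nduf mostly encode subunits of respiratory complex I and proteins that assemble it. They were taken from 3 deposited tables of mouse RNA sequencing by that symbol alone, with pseudogene symbols ending in -ps left out. They made up 48 of 15945 genes in the table of bone marrow cells, 47 of 22274 genes in the table of cytokine-treated cells and 48 of 16645 genes in the table of cultured eosinophils. Ndufb1 was present in the cytokine table only, and Ndufb4b and Ndufb4c, near-identical copies of Ndufb4, in the other tables only. There were 2 further rows in the cytokine table carrying the symbols Ndufb8 and Ndufb11, but their identifiers belong to Gm20538 and 1700029P11Rik in the reference annotation. Those rows held 0 to 3 reads per library and were not counted as members.

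Poly(A) RNA was sequenced from 21 libraries of wild-type mouse cells, to compare eosinophils with their progenitors, cytokine-stimulated with resting eosinophils, and cultured eosinophils with more or less iron. The untreated bone marrow eosinophils (n = 3) were set against untreated bone marrow granulocyte-macrophage progenitors, or GMPs (n = 3). The T2 eosinophils (n = 3) had received IL-4 and GM-CSF with a further interleukin, labelled IL33, IL34 and IL35 in replicates 1, 2 and 3. They were set against untreated resting eosinophils (n = 3). Taken as labelled, each T2 mixture has 1 library. The T2 libraries were tested as 1 group, and the labels cannot show whether the 3 names are a labelling error. Bone marrow-derived eosinophils, or BMDEs, were grown with SCF (100 ng/mL) and FLT3 ligand (100 ng/mL) for 4 days and then with IL-5 (10 ng/mL). From day 4 they received ferric ammonium citrate (FAC, 10 µM, an iron source, replicates 5 to 8), deferoxamine (DFO, 5 µM, an iron chelator, replicates 9, 11 and 12) or nothing (control, replicates 1 and 2), and RNA was taken on day 7. The labels repeat this culture protocol for every sample, so the isolation of the bone marrow, resting and T2 cells is not given in the sources used here. No label gives an age, or says that replicates were separate animals or cultures, so the p-values measure the spread between libraries, which may be technical.

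Complex I is the entry point of the mitochondrial respiratory chain: it takes electrons from NADH, passes them along a row of iron-sulfur clusters to ubiquinone, and pumps protons across the inner membrane. A matrix arm holds the flavin and all the clusters, a membrane arm holds the pumps, and many accessory subunits surround the core. The assembly factors, named Ndufaf, build and modify the modules without staying in the finished enzyme. The 5 subunits that bind clusters are Ndufs1, Ndufs7, Ndufs8, Ndufv1 and Ndufv2, of which Ndufv1 also binds NADH. The other matrix-arm members were 2 core subunits without a cluster and 9 accessory subunits. The membrane arm was represented by 19 accessory subunits, and there were 8 assembly factors. Ndufb1, also of the membrane arm, and the copies Ndufb4b and Ndufb4c were not counted in these roles. Ndufab1 is the mitochondrial acyl carrier protein, found in both arms. Ndufa4 and Ndufa4l2 carry the name but are not complex I subunits: the product of Ndufa4 is now counted with complex IV.

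Libraries held 25857382 to 28992668 counts in the bone marrow table, 16073573 to 18995878 in the cytokine table and 16809789 to 17991878 in the BMDE table. The Nduf genes took 0.309 to 0.673% of the counts in the bone marrow table, 0.0873 to 0.102% in the cytokine table and 0.179 to 0.31% in the BMDE table. All 10 eosinophil markers (such as Prg2, Epx and Siglecf) had at least 3 counts in every eosinophil library. They took 1.78 to 2.45% of the counts in bone marrow eosinophils, against 0.0113 to 0.0283% in GMPs. In each bone marrow eosinophil library the neutrophil markers took a larger share than the eosinophil markers, at 3.35, 6.6 and 13.6% in replicates 1, 2 and 3. The 8 progenitor markers, Mpo and Elane among them, were all present in both groups and took 2.52 to 6.26% in bone marrow eosinophils, against 6.17 to 6.95% in GMPs. There were 2 libraries that stood apart from their groups in the Nduf genes, bone marrow eosinophil replicate 3 and FAC replicate 6. For comparisons that include them, the counts of called Nduf genes and the median over all members are given with and without them. Group mean levels and the other gene lists are given with them only. In whole-sample RNA, fewer cells of a type and less RNA per cell cannot be told apart.

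**Figure D1:**
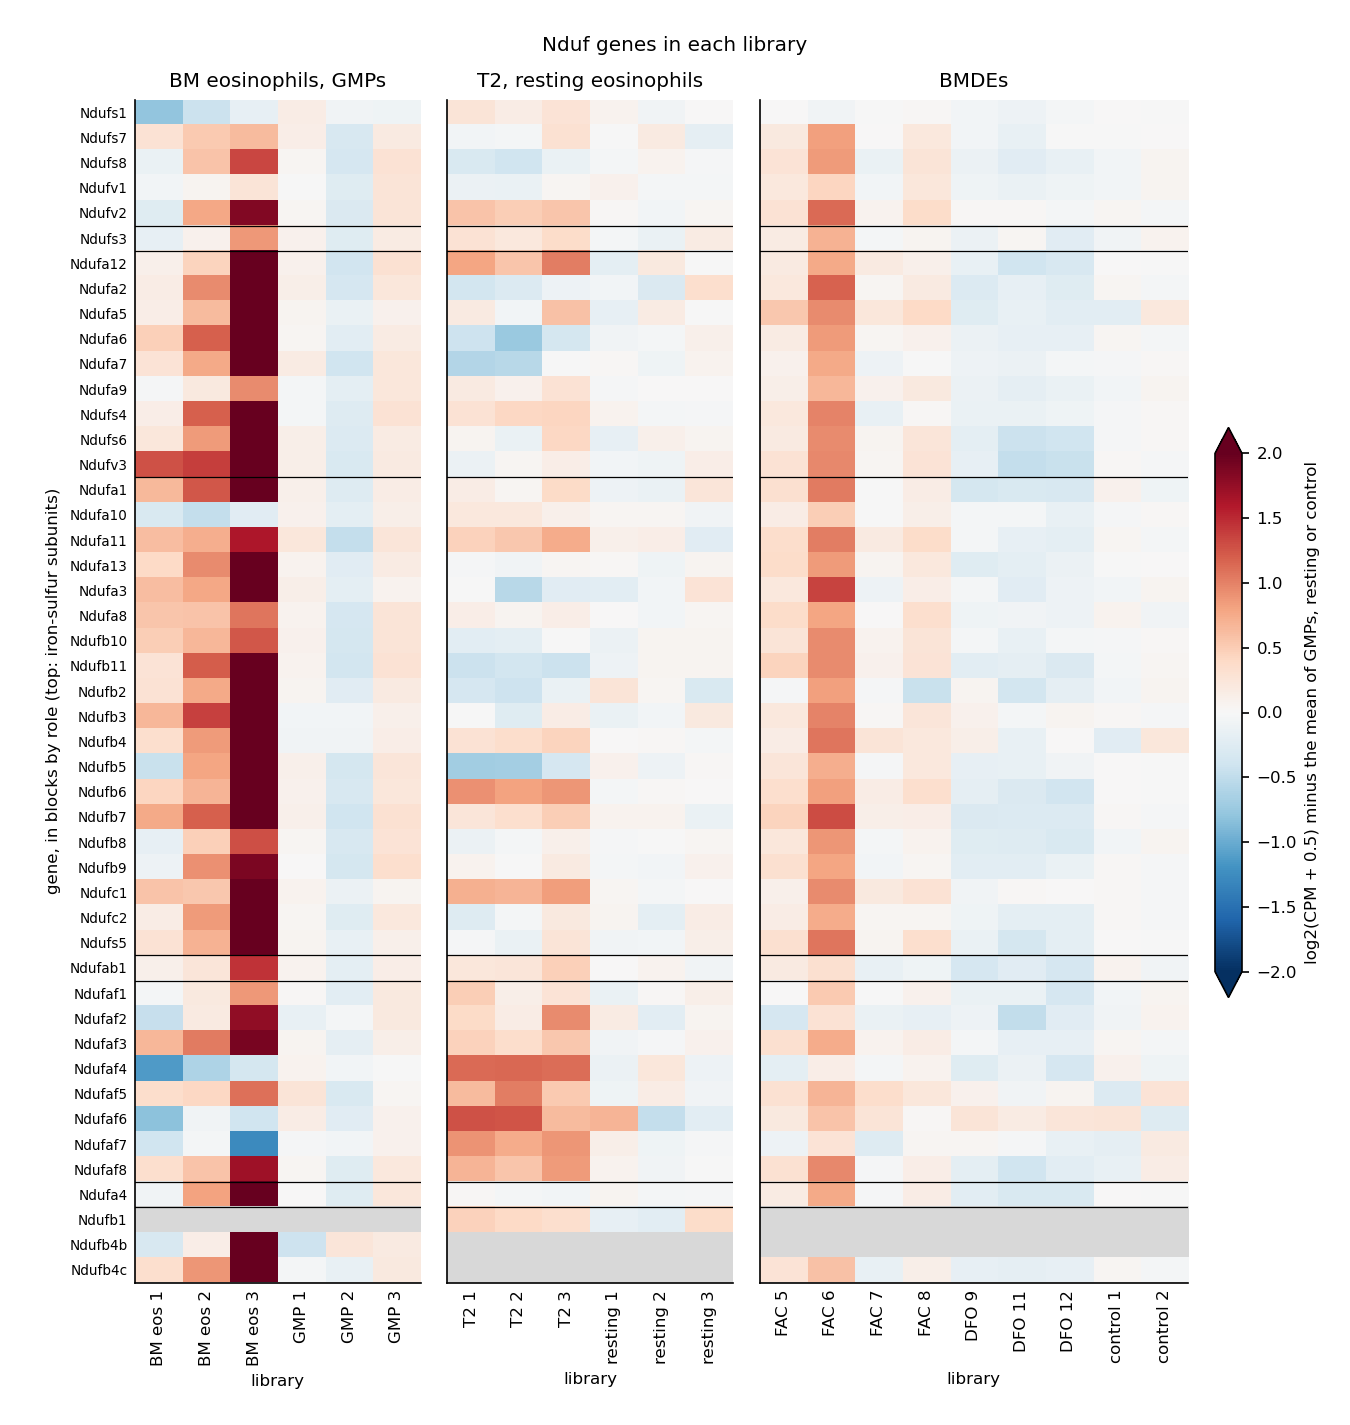
Rows are tested Nduf genes, with 1 gene not drawn, and columns are libraries; colour gives log2(CPM + 0.5) minus the mean of GMPs, resting eosinophils or control BMDEs of the same table, and saturates at 2 in either direction. Grey marks genes that were absent from a table or not tested there. Replicate 3 of the bone marrow eosinophils is red over most rows, replicate 6 of FAC is red over most rows at a smaller size, and the T2 libraries are mixed, with red assembly factors.

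Between genes, levels are given only per transcript length, as TPM (transcripts scaled to library size after division by length). Ndufa4 had the highest mean level in bone marrow eosinophils at 886.9 TPM and in GMPs at 826.5 TPM. Its eosinophil replicates 1, 2 and 3 had 536.1, 743.8 and 1381 TPM, against 763.3 to 894.1 TPM in GMPs, so the eosinophil mean rests on replicate 3. In BMDEs, Ndufa3, a small membrane-arm subunit, and Ndufa4 led in every arm, with 764.1 and 694.7 TPM under FAC, 656.2 and 600.2 TPM under DFO, and 664.6 and 682.4 TPM in controls. Their order under FAC rests on FAC replicate 6, with 1108 TPM for Ndufa3 and 773.5 TPM for Ndufa4. The other FAC libraries had 598.5 to 683.4 TPM for Ndufa3 and 645.5 to 686.5 TPM for Ndufa4. In the cytokine table Ndufb1, another small membrane-arm subunit, led in T2 eosinophils at 146 TPM and Ndufa6, a matrix-arm subunit, in resting eosinophils at 172.9 TPM. Most assembly factors stood low among the members. Ndufaf6 had 3.296 TPM in T2 and 1.425 TPM in resting eosinophils, 16.51 TPM in bone marrow eosinophils and 47.17 TPM in GMPs. In BMDEs it had 5.442 TPM under FAC, 5.973 TPM under DFO and 5.06 TPM in controls. Ndufaf8 stood higher, at 75.66 TPM in bone marrow eosinophils and 69.36 TPM in control BMDEs, where the cluster subunit Ndufs1 had 49.55 and 48.58 TPM. Ndufa4l2, which hypoxia induces in other cell types, was at or near 0 in all 21 libraries, with no more than 0.0578 CPM (counts scaled to library size) in any, and was not tested. Ndufb4b had 0.28 expected counts in FAC replicate 7 and 0 in the other 8 BMDE libraries, and a count of 0 allows up to 3 counts per library by counting error alone. Counts assigned among Ndufb4, Ndufb4b and Ndufb4c are uncertain, since reads can fit more than 1 copy.

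In bone marrow eosinophils against GMPs, most Nduf genes had higher values, but few passed the test and 1 library carried much of the size. Of 47 tested members, 3 rose and 0 fell at an adjusted p under 0.05 (edgeR quasi-likelihood F test with Benjamini-Hochberg adjustment over 12214 genes). Among all genes 19.8% were called: 13% rose and 6.78% fell, so the members' count of rises is below the background share. The fitted log2 fold change was above 0 for 41 members and below 0 for 6, with a median of 1.15 beside 0.01 over all tested genes. The groups did not overlap for 23 members with higher and 3 with lower values, where 23.7% and 24.7% of all genes were so placed.

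The 3 called genes were a matrix-arm subunit, a membrane-arm subunit and an assembly factor. Ndufv3, a small subunit of the flavoprotein part, had 96.62, 104.1 and 211.8 CPM in eosinophils, against 42.89, 32.04 and 44.77 CPM in GMPs. Every eosinophil library lay above every GMP library, and its log2 fold change was 1.78 (SE 0.34, adjusted p = 0.0145 by edgeR). Ndufb7, a subunit on the intermembrane-space side of the membrane arm, had 127, 171.6 and 417.7 CPM in eosinophils, against 80.12, 56.24 and 92.17 CPM in GMPs. The groups did not overlap here either, and the log2 fold change was 1.65 (SE 0.46, adjusted p = 0.0485 by edgeR). Ndufaf3, which acts with Ndufaf4 in building the module near the ubiquinone site, had 30.01, 38.94 and 71.4 CPM in eosinophils, against 19.51, 16.41 and 20.36 CPM in GMPs. Its log2 fold change was 1.32 (SE 0.35, adjusted p = 0.0399 by edgeR), while its partner Ndufaf4 was not called at -0.67 (SE 0.24, adjusted p = 0.0955 by edgeR).

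None of the 5 iron-sulfur subunits passed the test between eosinophils and GMPs. Their median log2 fold change was 0.47, against 1.30 for the other 42 members. Ndufs1, the largest cluster-binding subunit, had 100.2, 128.9 and 154.6 CPM in eosinophils, against 191.2, 165.2 and 163.8 CPM in GMPs, and stood lower without overlap (log2 fold change -0.44, SE 0.20, adjusted p = 0.158 by edgeR). Ndufv2, which binds a cluster beside the flavin, spread widely, with 107, 215.8 and 459.2 CPM in eosinophils and 129.4, 102.8 and 151.1 CPM in GMPs. Its log2 fold change was 1.03 (SE 0.49, adjusted p = 0.181 by edgeR). Ndufs8 was at 0.69, Ndufs7, which holds the last cluster before ubiquinone, at 0.47 and Ndufv1 at 0.08 on the log2 scale. By role, the median was 1.62 for the matrix-arm accessory subunits, 1.48 for the membrane-arm accessory subunits and 0.53 for the assembly factors. When the fit took account of transcript length and GC content through library offsets, these medians were -0.01, -0.08 and -0.52, and the iron-sulfur median was -0.41, against -0.22 for the other members. Ndufab1 was not called at 0.73 (adjusted p = 0.206 by edgeR), nor was Ndufa4 at 1.65 (adjusted p = 0.134 by edgeR).

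Bone marrow eosinophil replicate 3 held 9772 CPM in Nduf genes together, against 3210 and 4392 CPM in replicates 1 and 2 and 2556 to 3488 CPM in GMPs. The same library drew 27.5% of its counts from genes with transcripts under 1000 bases, against 9.66 and 13.6% in the other eosinophil libraries and 4.32 to 5.85% in GMPs. Its share of counts in the 12 neutrophil markers, all present in each eosinophil library, was 13.6%, against 3.35 and 6.6% in the other eosinophil libraries and 0.00936 to 0.0125% in GMPs. The part of these in the result was not tested. Per transcript length the totals of the groups overlapped. Nduf genes summed to 8050, 8539 and 10776 TPM in eosinophils and 9153 to 10809 TPM in GMPs. Across the 45 members with a known length, the log2 fold change and the transcript length had a Spearman correlation of -0.50, and across 11973 tested genes -0.34, as a description of 6 shared libraries.

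Without eosinophil replicate 3, the spread between libraries was smaller and 10 members rose while 2 fell, where 20.1% of all genes rose and 16.4% fell. The median log2 fold change was then 0.46, with 0.24 for the iron-sulfur subunits. Ndufv3 was at 1.32, Ndufb7 at 0.96 and Ndufaf3 at 0.87, all still called, and Ndufs1 (-0.60, SE 0.16, adjusted p = 0.0219) and Ndufaf4 (-0.87, SE 0.20, adjusted p = 0.0105, both by edgeR) were the 2 that fell. When transcript length and GC content entered the fit as library offsets, the median of all members was -0.26 and the counts were 1 higher (Ndufv3) and 7 lower, where 11.7% and 10.7% of all genes were called. The sign of the median thus differed between the fits with and without these offsets. Without eosinophil replicate 1 there were 24 rises, without replicate 2 there was 1, and without any 1 GMP library there was 0. Over all genes 1977 of 12467 rose without eosinophil replicate 1 and 1022 of 12456 without replicate 2. Without GMP replicate 1, 2 and 3 in turn 622, 704 and 754 genes rose, against 1585 of 12214 with all libraries. DESeq2 called 24 higher and 1 lower, where it called 19.0% and 12.7% of all genes. At an unadjusted p under 0.05, the edgeR fit gave 27 higher and 1 lower, where 4405 of 12214 genes passed in either direction.

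Of the other respiratory complexes 1 gene rose and 2 fell in eosinophils against GMPs, beside 13% rises and 6.78% falls among all genes. In complex II, 1 of 8 fell: Sdha, its flavoprotein subunit, with a log2 fold change of -0.73. In complex III 0 of 13 passed (lowest adjusted p = 0.0849 by edgeR), and in complex V 0 of 17 (lowest adjusted p = 0.0783 by edgeR). In complex IV Cox17, a copper chaperone, rose (2.45) and Sco1, another copper protein of its assembly, fell (-0.89). Among 17 genes of iron-sulfur cluster assembly 1 rose (Nfu1, 1.43) and 2 fell, among them Hspa9, the mitochondrial Hsp70, at -1.27. Ecsit, an assembly factor of complex I without the Nduf name, fell (-0.92), and so did the regulators Pprc1 (-1.27) and Polrmt (-0.81). With offsets for length and GC content the falls numbered 2 in complex II, 5 in complex III, 4 in complex IV and 5 in complex V, with 1 rise, in complex IV, where 10.7% of all genes fell and 11.7% rose.

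**Figure D2:**
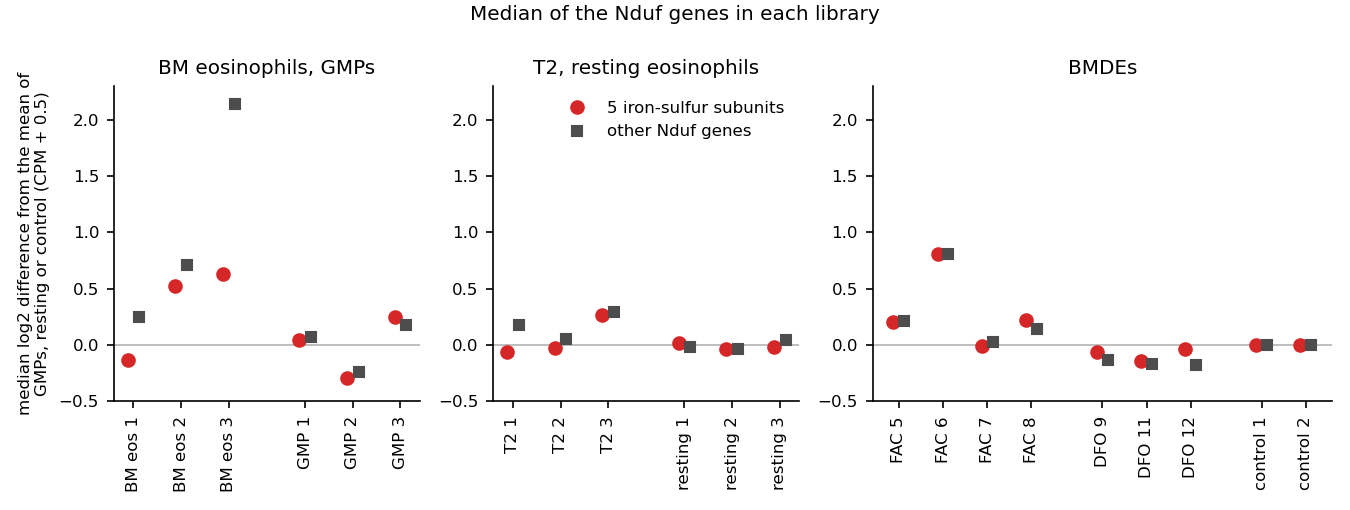
Points give, for each library, the median over the 5 iron-sulfur subunits (circles) and over the other tested Nduf genes (squares) of log2(CPM + 0.5) minus the mean of GMPs, resting eosinophils or control BMDEs. The squares and circles part most in bone marrow eosinophil replicate 3, at 2.14 and 0.63, and lie together in FAC replicate 6, both at 0.81.

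Between T2 and resting eosinophils, single Nduf genes differed in both directions. Every one of the 8 assembly factors rose, while the 37 tested complex I subunits split into 14 that rose and 5 that fell. Over all 46 tested members, 22 rose and 5 fell. Among all genes 76.1% were called: 38.2% rose and 37.9% fell. The median log2 fold change was 0.19 beside -0.01 over all genes, and 20 members stood higher and 4 lower without overlap, against 38.8% and 39.0% of all genes. Summed per transcript length, Nduf genes had 2323 to 2652 TPM in T2 eosinophils and 2719 to 2862 TPM in resting eosinophils. In scaled counts the sum was 950.4 to 1067 CPM in T2 eosinophils and 906.2 to 949.3 CPM in resting eosinophils, so the order of the sums depended on the scale.

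The assembly factors had a median log2 fold change of 0.78, against 0.05 for the 19 membrane-arm accessory subunits, which leave out Ndufb1 (0.38, called), and 0.14 for the matrix-arm accessory subunits. Ndufaf4 had 7.793, 7.844 and 7.719 CPM in T2 eosinophils, against 2.977, 3.933 and 3.007 CPM in resting eosinophils. All T2 libraries lay above all resting libraries, at a log2 difference of 1.23 (SE 0.16, adjusted p = 3.34e-06 by edgeR). Ndufaf7, a methyltransferase, had 20.74, 18.61 and 20.53 CPM in T2 eosinophils, against 11.85, 10.27 and 10.7 CPM in resting eosinophils. The separation was again complete, at 0.87 (SE 0.09, adjusted p = 2.99e-07 by edgeR). Ndufaf5, which hydroxylates the cluster subunit Ndufs7, had 5.031, 6.75 and 4.643 CPM in T2 eosinophils, against 2.864, 3.473 and 2.891 CPM in resting eosinophils. Its log2 fold change was 0.82 (SE 0.19, adjusted p = 0.00121 by edgeR).

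Ndufaf8, a partner of Ndufaf5, had 13.87, 12.77 and 15.83 CPM in T2 eosinophils, against 8.93, 8.121 and 8.501 CPM in resting eosinophils, without overlap (log2 fold change 0.74, SE 0.11, adjusted p = 1.39e-05 by edgeR). Ndufaf3 rose by less, at 0.50 (SE 0.15, adjusted p = 0.0067 by edgeR), and Ndufaf1, which works with Ecsit and Acad9 on the membrane arm, had the lowest log2 fold change of the 8 at 0.31 (SE 0.12, adjusted p = 0.0312 by edgeR). Ndufaf6 had the highest, at 1.48 (SE 0.45, adjusted p = 0.00776 by edgeR), but on low counts. It had 2.025, 2.007 and 1.119 CPM in T2 eosinophils and 1.179, 0.2554 and 0.4048 CPM in resting eosinophils, and the groups overlapped. Ndufaf2, a late-acting chaperone of the NADH-binding module, had 2.577, 2.128 and 4.027 CPM in T2 eosinophils and 2.134, 1.532 and 1.966 CPM in resting eosinophils, which also overlapped (0.64, SE 0.28, adjusted p = 0.0475 by edgeR). The groups were apart for 6 of the 8. With offsets for length and GC content 6 of the 8 rose and the median was 0.64.

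**Figure D3:**
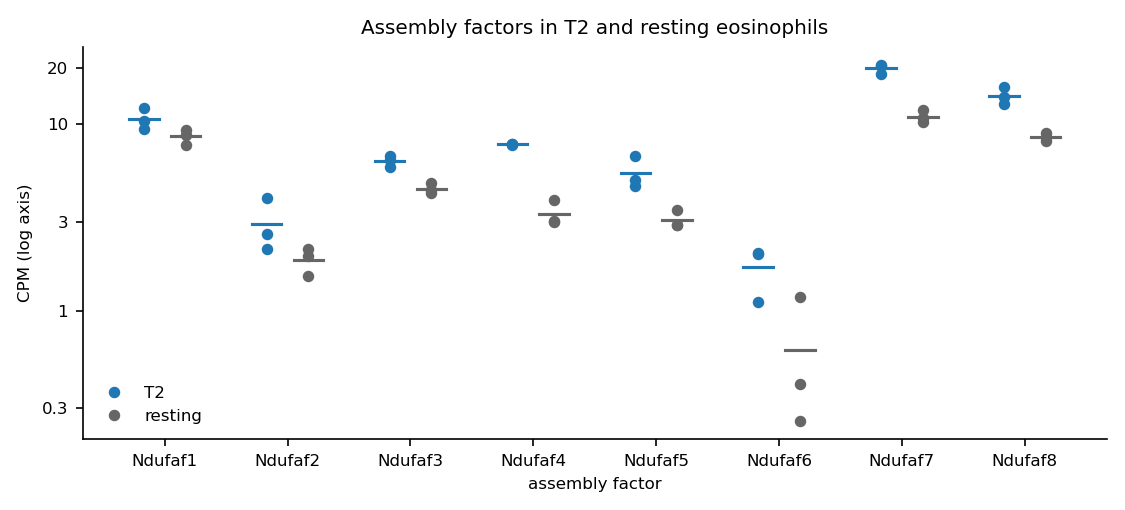
Points give the CPM (log axis) of each assembly factor in each of 3 T2 and 3 resting libraries, and lines the group means. The T2 points lie above all resting points except for Ndufaf2 and Ndufaf6.

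The iron-sulfur subunits went in both directions under T2 cytokines. Ndufv2 had 39.21, 37.21 and 38.87 CPM in T2 eosinophils, against 26.57, 25.33 and 26.83 CPM in resting eosinophils, with narrow groups far apart (log2 fold change 0.55, SE 0.06, adjusted p = 7.32e-07 by edgeR). Ndufs1 had 67.13, 62.33 and 67.85 CPM in T2 eosinophils, against 58.52, 53.42 and 56.21 CPM in resting eosinophils (0.23, SE 0.06, adjusted p = 0.00195 by edgeR). Ndufs8 fell: it had 16.01, 14.96 and 18.18 CPM in T2 eosinophils, against 19.38, 20.84 and 19.6 CPM in resting eosinophils (-0.28, SE 0.09, adjusted p = 0.0084 by edgeR). Ndufs7 at 0.08 and Ndufv1 at -0.07 were not called. The median of the 5 was 0.08, against 0.20 for the other 41 members, and it was -0.04 with upper-quartile scaling. Ndufab1 rose by 0.32 (SE 0.09, adjusted p = 0.00384 by edgeR), and Ndufa4 was not called at -0.03.

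Among the remaining subunits, the largest rises were in Ndufb6, Ndufa12 and Ndufc1. Ndufb6, in the membrane arm, had 13.99, 13.01 and 13.76 CPM in T2 eosinophils, against 7.021, 7.355 and 7.229 CPM in resting eosinophils (log2 fold change 0.91, SE 0.10, adjusted p = 5.59e-07 by edgeR). Ndufa12, which takes the place of Ndufaf2 in the matrix arm, had 9.081, 7.601 and 10.8 CPM in T2 eosinophils, against 4.325, 5.873 and 5.031 CPM in resting eosinophils (0.85, SE 0.16, adjusted p = 0.000155 by edgeR). Ndufc1, a small membrane-arm subunit, had 5.338, 5.169 and 5.873 CPM in T2 eosinophils, against 3.145, 2.962 and 3.065 CPM in resting eosinophils (0.84, SE 0.17, adjusted p = 0.000329 by edgeR). All of these were free of overlap.

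Ndufb5, Ndufa6, Ndufb11 and Ndufa7 fell beside Ndufs8. Ndufb5, in the membrane arm, had 12.46, 12.59 and 16.22 CPM in T2 eosinophils, against 21.79, 19.05 and 20.82 CPM in resting eosinophils (log2 fold change -0.57, SE 0.10, adjusted p = 0.000116 by edgeR). Ndufa6, a matrix-arm subunit that binds Ndufab1, had 29.33, 23.23 and 30.76 CPM in T2 eosinophils, against 37.63, 38.15 and 42.5 CPM in resting eosinophils (-0.50, SE 0.09, adjusted p = 9.92e-05 by edgeR). Ndufb11 was at -0.42 (SE 0.07, adjusted p = 3.61e-05 by edgeR), without overlap. Ndufa7 was at -0.36 (SE 0.12, adjusted p = 0.0155 by edgeR), with T2 replicate 3 at 22.37 CPM inside the resting range of 21.2 to 23.59 CPM.

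The balance of rises and falls among members in T2 eosinophils moved with the scaling. Upper-quartile scaling, which put the median of all genes at -0.13, gave 16 rises and 12 falls among members, where 32.5% and 43.4% of all genes were called, and a membrane-arm median of -0.07. Offsets for length and GC content gave 16 and 13, where 38.1% and 39.1% of all genes were called. The count of falls was 3 without T2 replicate 2 and 8 without T2 replicate 3. No member called both here and under an alternative had opposite signs in them. Eosinophil markers took 0.59 to 0.595% of counts in T2 eosinophils and 0.822 to 0.857% in resting eosinophils. The 12 neutrophil markers, all present, took 0.117 to 0.122% in T2 eosinophils and 0.269 to 0.291% in resting eosinophils. Their part in the result was not tested.

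In T2 eosinophils rises outnumbered falls in complexes III, IV and V, with and without offsets for length and GC content, beside 38.2% rises and 37.9% falls among all genes. Rises and falls numbered 12 and 2 of 17 in complex IV, 10 and 1 of 17 in complex V, 7 and 2 of 13 in complex III, and 3 and 2 of 8 in complex II. With the offsets they numbered 9 and 2 in complex IV, 9 and 2 in complex V and 7 and 3 in complex III, while in complex II they turned to 2 and 4. Cox10, which acts in the making of the heme of complex IV, rose by 1.82 and Cox5a by 1.04. In complex V Atp5mc1 rose by 0.91 and Atp5f1b by 0.64, in complex III Uqcrq rose by 0.74 and Cyc1 by 0.62, and in complex II Sdhc rose by 0.40 and Sdha fell by 0.34, all on the log2 scale. Of 16 tested genes of iron-sulfur cluster assembly 9 rose and 3 fell, and Hspa9 (1.17) and Fdx1l, a mitochondrial ferredoxin (2.10), were among those that rose. Complex I genes without the Nduf name gave 6 rises and 2 falls of 15, or 3 and 5 with the offsets, with Ecsit at 1.11 and Tmem126b, an assembly factor of the membrane arm, at -0.58. Among 9 tested regulators of mitochondrial genes 6 rose and 0 fell, with Pprc1, a PGC-1 related coactivator, at 3.01 (SE 0.07) and Hif1a at 1.54 (SE 0.05, adjusted p = 3.21e-13 by edgeR).

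In BMDEs the Nduf genes had their highest scaled counts under FAC and their lowest under DFO, and only the difference between FAC and DFO passed the test in single genes. FAC libraries summed to 2257, 3369, 1943 and 2159 CPM in Nduf genes and DFO libraries to 1765, 1702 and 1715 CPM, with the 2 controls at 1918 and 1937 CPM. All DFO libraries lay below both controls, and all FAC libraries above both, FAC replicate 7 by the least. Per transcript length the sums were 7218, 9006, 6719 and 7011 TPM under FAC, 6564, 6312 and 6518 TPM under DFO and 6867 and 6999 TPM in controls, so that FAC replicate 7 lay below both controls on that scale. FAC replicate 6 stood apart from the other FAC libraries: its median Nduf gene was 0.81 above the control mean on the log2 scale, where the others were at 0.21, 0.01 and 0.15. The transferrin receptor gene Tfrc, which cells lower when iron is plentiful, was at 320.4 ± 13.2 CPM under FAC (SD, n = 4), 480.7 ± 4.36 CPM under DFO (SD, n = 3) and 484.8 ± 11.6 CPM in controls (SD, n = 2). It fell under FAC against control (log2 fold change -0.60, SE 0.06, adjusted p = 0.00178 by edgeR) and was not called under DFO (-0.01, adjusted p = 0.933 by edgeR). The ferritin heavy chain gene Fth1 was not called under FAC (0.38) or DFO (0.36) against control.

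Under FAC against DFO, 26 of 46 tested members rose and 0 fell, where 23.5% of all genes rose and 24.8% fell. The fitted log2 fold change was above 0 for all 46, with a median of 0.48 beside -0.01 over all genes, and 33 members stood higher and 0 lower without overlap, against 26.8% and 28.9% of all genes. The rises were spread over 6 of 9 matrix-arm accessory subunits, 12 of 19 membrane-arm accessory subunits, 3 of 8 assembly factors and 2 of 5 iron-sulfur subunits, and took in Ndufab1, Ndufa4 and Ndufb4c. Ndufs3, a core subunit without a cluster, was not called (0.35).

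Ndufb7 had the largest difference, with 76.41, 139.9, 61.2 and 62.05 CPM under FAC, against 45.99, 46.31 and 46.25 CPM under DFO (log2 fold change 0.88, SE 0.27, adjusted p = 0.0227 by edgeR). Ndufv3 had 72.56, 115.8, 60.36 and 71.76 CPM under FAC, against 52.63, 42.12 and 43.36 CPM under DFO (0.80, SE 0.20, adjusted p = 0.0103 by edgeR). Both sets were apart, and FAC replicate 6 was the highest library in each. Ndufa5, in the matrix arm, had 28.61, 37.96, 23.05 and 25.86 CPM under FAC, against 16.42, 17.62 and 16.86 CPM under DFO (0.77, SE 0.17, adjusted p = 0.00586 by edgeR). Ndufb6, which also rose in T2 eosinophils, had 40.69, 56.7, 35.51 and 40.76 CPM under FAC, against 28.2, 26.18 and 24.46 CPM under DFO (0.72, SE 0.15, adjusted p = 0.00348 by edgeR). Ndufa1 (0.77), Ndufs6 (0.75), Ndufa2 (0.72) and Ndufs5 (0.72) followed, all called and all without overlap. Ndufab1 had 47.62, 52.53, 38.2 and 39.9 CPM under FAC, against 33.41, 35.91 and 33.31 CPM under DFO (0.38, SE 0.11, adjusted p = 0.0221 by edgeR). Among the assembly factors the values ran between Ndufaf8, which rose by 0.69 (SE 0.23, adjusted p = 0.0352 by edgeR), and Ndufaf7 at 0.04 (adjusted p = 0.812 by edgeR).

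Of the iron-sulfur subunits, Ndufv1 and Ndufs8 rose under FAC against DFO. Ndufv1 had 78.84, 92.48, 65.87 and 79.98 CPM under FAC, against 64.75, 62.25 and 64.24 CPM under DFO, and the groups were just apart (log2 fold change 0.31, SE 0.10, adjusted p = 0.0331 by edgeR). Ndufs8 had 51, 76.46, 38.14 and 50.29 CPM under FAC, against 38.61, 35.74 and 37.74 CPM under DFO, with FAC replicate 7 inside the DFO range (0.53, SE 0.19, adjusted p = 0.0472 by edgeR). Ndufv2 (0.52, adjusted p = 0.0739) and Ndufs7 (0.41, adjusted p = 0.0717, both by edgeR) missed the threshold. Ndufs1 had the smallest difference of the 5, with 78.07, 73.86, 76.95 and 78.55 CPM under FAC and 74.08, 72.04 and 75.03 CPM under DFO (0.06, SE 0.06, adjusted p = 0.402 by edgeR), and there FAC replicate 6 was the lowest FAC library. The median was 0.41 for the 5 and 0.48 for the other 41 members. Within each BMDE library the iron-sulfur median minus the median of the other members lay between -0.03 and 0.14 on the log2 scale, against -1.51 in bone marrow eosinophil replicate 3.

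Without FAC replicate 6 the differences between FAC and DFO were smaller, and more of them passed the test. Of 46 members 34 rose and 0 fell, where 31.9% of all genes rose and 30.7% fell, and the 26 called with all libraries were among the 34. The median log2 fold change was 0.29, with 0.25 for the iron-sulfur subunits, of which 4 rose. Ndufb7 was at 0.54 (SE 0.07), Ndufv3 at 0.58 (SE 0.08), Ndufa5 at 0.62 (SE 0.11) and Ndufb6 at 0.58 (SE 0.07, adjusted p = 4.77e-06 by edgeR). Ndufv2 (0.26, adjusted p = 0.00398) and Ndufs7 (0.23, adjusted p = 0.00841, both by edgeR) were then called. With all libraries and offsets for length and GC content 26 rose and 1, Ndufa7, fell, with a median of 0.22, where 32.8% and 22.8% of all genes were called. The count of rises was 9, 5 and 6 without DFO replicate 9, 11 and 12 in turn. Over all genes the rises then numbered 2199 of 12554, 1929 of 12546 and 2013 of 12557, against 2959 of 12607 with all libraries. A fit of the FAC and DFO libraries alone gave 17 rises, where 21% of all genes rose and 22.7% fell.

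**Figure D4:**
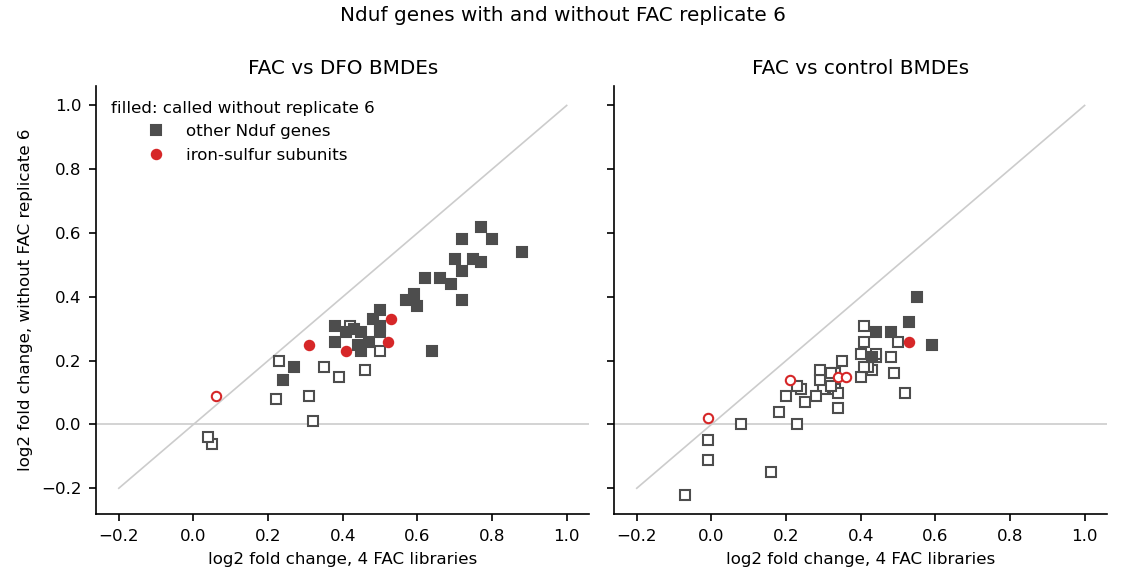
Each point is a Nduf gene, with its log2 fold change from all 4 FAC libraries on the x axis and without FAC replicate 6 on the y axis, for FAC against DFO (left) and FAC against control (right); filled points were called without replicate 6, circles are iron-sulfur subunits and the diagonal marks equal values. Every point except Ndufs1 lies below the diagonal, and 34 are filled on the left and 7 on the right.

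Against control, FAC called 0 of 46 members in either direction, where 1.76% of all genes rose and 4.28% fell (6.04% in all). DESeq2 also called 0, where it called 4.36% of all genes higher and 6.04% lower. In the edgeR fit 5 members were higher at an unadjusted p under 0.05, where 2836 of 12607 genes passed in either direction. The log2 fold change was above 0 for 42 members, the median was 0.34 for all members and for the iron-sulfur subunits alike, and 18 stood higher and 0 lower without overlap, against 17.1% and 19.0% of all genes. Ndufv2 had 63.67, 113.5, 54.67 and 66.68 CPM under FAC, against 53.44 and 50.14 CPM in controls (0.53, SE 0.25, adjusted p = 0.243 by edgeR). Ndufs7 and Ndufs8 were at 0.34 and 0.36, Ndufv1 at 0.21 and Ndufs1 at -0.01, none called. The assembly factors lay between 0.41 (Ndufaf5) and -0.07 (Ndufaf2). Ndufab1 was at 0.08 and Ndufa4 at 0.30. Without FAC replicate 6 the median was 0.15, and 7 members rose, where 9.98% of all genes rose and 11.7% fell: Ndufa5 (0.40), Ndufa11 (0.32), Ndufb6 (0.29), Ndufb11 (0.29), Ndufv2 (0.26, SE 0.08, adjusted p = 0.0247 by edgeR), Ndufb7 (0.25) and Ndufb10 (0.21).

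Against control, DFO called 0 of 46 members, where 6.46% of all genes rose and 5.12% fell (11.6% in all). DESeq2 called 0 as well, where it called 8.59% of all genes higher and 6.87% lower. In the edgeR fit 0 members were below an unadjusted p of 0.05, where 3280 of 12607 genes were. The log2 fold change was below 0 for 43 members, with a median of -0.15 beside 0.00 over all genes, and 33 members stood lower and 0 higher without overlap, against 32.9% and 32.8% of all genes. Ndufv3 had 52.63, 42.12 and 43.36 CPM under DFO, against 59.93 and 58.05 CPM in controls (-0.36, SE 0.24, adjusted p = 0.388 by edgeR). Ndufa4 had 86.2, 80.04 and 80.42 CPM under DFO, against 99.71 and 99.3 CPM in controls (-0.28, SE 0.19, adjusted p = 0.416 by edgeR). Ndufab1 was at -0.30 (SE 0.14, adjusted p = 0.193 by edgeR). The iron-sulfur subunits had a median of -0.07 and the other 41 members -0.16, with Ndufs8 lowest at -0.17 and Ndufv2 highest at 0.01, and Ndufv1 at -0.10, Ndufs1 at -0.07 and Ndufs7 at -0.07 between them. Among the assembly factors Ndufaf8 and Ndufaf2 were lowest, both at -0.29, and Ndufaf6 highest at 0.23.

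The 3 BMDE arms shared 1 estimate of the spread, so FAC replicate 6 also entered the test of DFO against control. Without that library 12 members fell under DFO, where 20.2% of all genes fell and 18.9% rose, at log2 fold changes close to those with it. Ndufv3 was at -0.36 (SE 0.09, adjusted p = 0.007), Ndufa4 at -0.28 (SE 0.06, adjusted p = 0.00313) and Ndufab1 at -0.31 (SE 0.09, adjusted p = 0.0114, all by edgeR). None of the 12 was an iron-sulfur subunit or an assembly factor. In a fit of the DFO and control libraries alone 20 fell, where 24.3% of all genes fell and 23.7% rose. The FAC and DFO comparisons with control share the 2 control libraries, and the FAC and DFO arms enter more than 1 comparison.

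Values of other kinds also differed between the iron arms. Genes with transcripts under 1000 bases took 10.7, 14.4, 9.5 and 10.5% of counts under FAC, 7.36, 7.14 and 7.08% under DFO and 8.64% in both controls. The 10 eosinophil markers took 5.56 to 6.25% under FAC, 1.92 to 2.25% under DFO and 4.26 to 4.33% in controls. The 12 neutrophil markers, all present in each arm, took 0.636 to 0.863% under FAC, 1.77 to 1.99% under DFO and 0.941 to 1.12% in controls. The log2 fold change and the transcript length had a Spearman correlation of -0.49 across 45 members and -0.42 across 12367 genes for FAC against DFO. It was -0.46 and -0.50 for FAC against control, and 0.25 and 0.23 for DFO against control. Their part in the Nduf results was not tested.

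**Figure D5:**
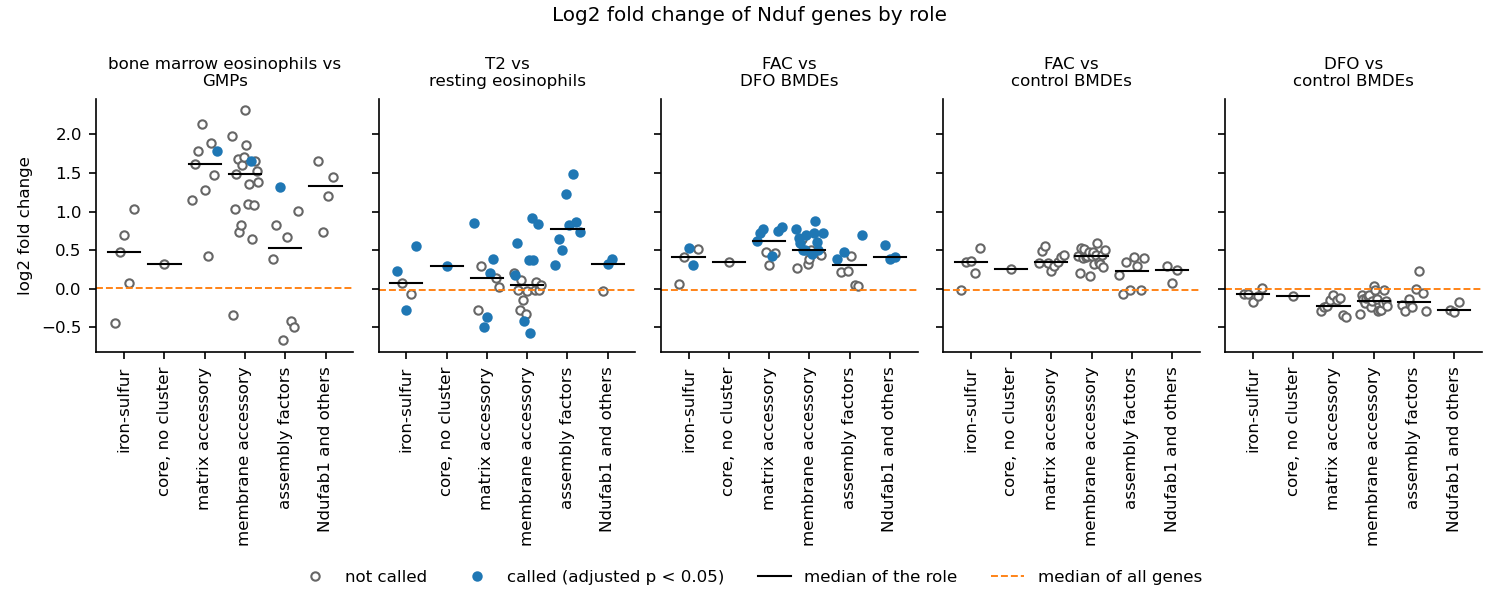
Points give the log2 fold change of tested Nduf genes in the 5 comparisons, by role, with 1 gene not drawn; filled points were called at an adjusted p under 0.05 (edgeR), black lines are role medians and the dashed line is the median of all tested genes. Called points fill the assembly factors in T2 eosinophils and most accessory subunits for FAC against DFO, and none appear for FAC or DFO against control.

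Genes of complexes III, IV and V also rose under FAC against DFO. Complex V gave 14 rises of 17, complex IV 10 of 17 and complex III 9 of 13, with 0 falls in each, beside 23.5% rises among all genes. Complex II, with 2 rises of 8 and 0 falls, was near the share of all genes. In complex V Atp5a1 rose by 0.37 and Atp5b by 0.31, in complex IV Cox7c rose by 0.53 and Cox10 by 0.43, in complex III Uqcrq rose by 0.85 and Uqcrfs1, the Rieske iron-sulfur protein, by 0.44, and in complex II Sdhc rose by 0.44 and Sdhd by 0.33. Of 17 genes of iron-sulfur cluster assembly 9 rose and 1 fell, with Fdx1, a mitochondrial ferredoxin, at 0.92 and Nfu1, which delivers clusters, at 0.49. With offsets for length and GC content 32.8% of all genes rose and 22.8% fell. The rises then numbered 10 in complex V, 10 in complex IV, 6 in complex III and 3 in complex II, with 0 falls. Cluster assembly then gave 6 rises and 2 falls. Of 9 complex I genes without the Nduf name Timmdc1 rose (0.22) and Tmem186 fell (-0.23). Among 10 tested regulators 2 rose and 1 fell, with Myc at 0.33 and Ppargc1b at -0.91. Under DFO against control, Tmem126b (-0.45, SE 0.10, adjusted p = 0.0221 by edgeR), Cox10 (-0.39, SE 0.10, adjusted p = 0.0285 by edgeR) and Myc (-0.43, SE 0.09, adjusted p = 0.0176 by edgeR) fell. Under FAC against control, 0 genes of these lists were called.

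Sequences before the start sites were read for the members, whether or not they were called in any comparison. The search used no expression values, and motif shares were not compared between called and uncalled members. Members were set beside all genes with a window, expressed in these cells or not. RefSeq windows (GRCm38.p6) from 250 bases before to 50 bases after a start site were found for 42 of the 49 genes. A gene was counted when any of its windows held the motif on either strand, and no motif searched contains another. The motif of NRF1 (GCGCA, any base, then GCGC), a factor known for driving respiratory chain genes, was in 9 of 42 members (21.4%) and in 5.19% of 27025 genes. The motif of YY1 (AAGATGG followed by CGG) was in 5 members (11.9%) and in 0.995% of all genes. The ETS motif (CCGGAAG) was in 6 members (14.3%) and in 9.93% of all genes, and the SP motif (GGGCGG) in 21 members (50%) and in 38.2% of all genes. These are matches of letters, with no binding measured, and their part in the Nduf results was not tested. The 60-base stretches of the 5 members whose NRF1 motif lies wholly before the start site with 25 bases on either side follow, with the motif in capitals, each on the strand of the gene.
Ndufa11 (chr17:56717677-56717736, plus strand): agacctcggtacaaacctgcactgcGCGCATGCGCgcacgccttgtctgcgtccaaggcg
Ndufa5 (chr6:24527682-24527741, minus strand): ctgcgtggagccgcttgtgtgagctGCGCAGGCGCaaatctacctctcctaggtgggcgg
Ndufaf4 (chr4:24897945-24898004, plus strand): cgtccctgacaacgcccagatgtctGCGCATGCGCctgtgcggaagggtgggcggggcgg
Ndufb4 (chr16:37654525-37654584, minus strand): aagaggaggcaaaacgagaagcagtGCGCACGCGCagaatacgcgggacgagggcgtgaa
Ndufs5 (chr4:123718250-123718309, minus strand): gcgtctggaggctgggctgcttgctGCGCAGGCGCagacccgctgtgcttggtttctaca
In the first of these the motif begins 60 bases before the start site, and in the others 190, 113, 191 and 98 bases before it. Ndufa5 has a second start site in RefSeq, and its motif begins 26 bases before that one. The window of Ndufb4 holds 3 matches, of which the one farthest from the start site is shown. The search left 1 base of the motif free: Ndufa11 and Ndufaf4 carry the same motif letters, as do Ndufa5 and Ndufs5. Of the 5 printed genes Ndufa5, Ndufa11 and Ndufs5 rose under FAC against DFO, where 26 of 46 tested members and 23.5% of all genes rose. Of the members with the motif but no printed stretch, Ndufa8 and Ndufs6 rose there, and Ndufa6 and Ndufaf5 were not called. Among the printed genes alone, Ndufa11, Ndufaf4 and Ndufb4 rose in T2 eosinophils, where 22 of 46 tested members and 38.2% of all genes rose.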

How the data were processed

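RNA was extracted with Trizol, enriched with oligo(dT) beads and made into libraries with a NEBNext Ultra kit, per the labels' protocols. The strand setting of the counting is not given in the sources used here. The submitters' processing notes name the build mm10 and the tools RSEM, HISAT2, Bowtie2 (2.2.8), StringTie (1.3.1) and fastp (0.18.0), with no role for any. The authors deposited expected counts, TPM and FPKM per gene for the bone marrow table and the BMDE table, and whole read counts and FPKM for the cytokine table. TPM for the cytokine table was obtained by rescaling its deposited FPKM to the same total in every library, and FPKM and TPM entered no test.

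Expected counts were rounded. Genes passing filterByExpr were fitted with edgeR 4.0.16 (limma 3.58.1, R 4.3.3), TMM scaling and quasi-likelihood testing, with Benjamini-Hochberg adjustment over all tested genes of a table and calls at 0.05. The 3 BMDE arms shared 1 fit. Tables were tested separately. The fit was tested on simulated data with 200 changed genes. The simulation held no shift shared across the genes of a library and no trend with transcript length, so it cannot check their effect on the calls. Alternatives were other scaling factors, DESeq2 1.42.0, no filter, offsets for length and GC content, leaving out each library, a replicate block, and fits of 2 BMDE arms alone.

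The members, lists and tests were chosen with earlier results of these data known. Named genes were the iron-sulfur subunits, Ndufab1, Ndufa4 and Ndufa4l2 throughout; up to 8 called members in each direction by size of log2 fold change; the extreme assembly factors; the genes highest and lowest in level; up to 2 called genes from each other list; and Tfrc and Fth1. Other genes named were chosen after their values were seen. Values of some single genes are not reported here, and their counts stand in the totals. Counts limit precision by counting error only, and PCR copies are not independent molecules. Replicate pairs differed by more than sampling noise, so none was merged.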

Additional observations from a re-analysis of the deposited data

Results flagged for a closer look

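Under FAC, replicate 6 lay far above the other 3 FAC libraries in 11 of 46 tested Nduf genes (23.9%), by its gap to the nearest library relative to the whole range of the 4. Among all tested genes 1175 of 12607 (9.32%) had such a library, which was replicate 6 in 1001 of them, and chance alone marks about 1 group in 20. Ndufa12 had 67.03 CPM there, with the other FAC libraries at 42.02 to 44.6 CPM. Ndufa2 had 80.63 CPM there, with the other FAC libraries at 35.93 to 40.87 CPM. Ndufa3 had 103.8 CPM there, with the other FAC libraries at 37.84 to 47.15 CPM. Ndufa6 had 89.46 CPM there, with the other FAC libraries at 50.9 to 55.32 CPM. Ndufa7 had 76.52 CPM there, with the other FAC libraries at 41.86 to 47.56 CPM. Ndufaf1 had 18.86 CPM there, with the other FAC libraries at 12.99 to 13.87 CPM. Ndufb10 had 126.8 CPM there, with the other FAC libraries at 68.86 to 78.15 CPM. Ndufb4 had 23.94 CPM there, with the other FAC libraries at 12.38 to 13.35 CPM. Ndufc1 had 29.62 CPM there, with the other FAC libraries at 16.29 to 18.44 CPM. Ndufc2 had 101.8 CPM there, with the other FAC libraries at 62.1 to 67.17 CPM. Ndufs6 had 56.94 CPM there, with the other FAC libraries at 30.66 to 34.82 CPM.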

How the results depend on the processing

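For bone marrow eosinophils against GMPs, DESeq2 gave 24 higher and 1 lower. Offsets for length and GC content gave 1 higher and 7 lower, with medians of -0.26 for all members, -0.41 for the iron-sulfur subunits, -0.22 for the rest, -0.30 for the matrix arm, -0.08 for the membrane arm and -0.52 for the assembly factors. Same-numbered libraries did not deviate together, with correlations of 0.02, -0.03 and 0.17 in the bone marrow table and -0.02, -0.02 and 0.01 in the cytokine table. A replicate block gave 2 higher and 0 lower for eosinophils and 22 higher and 6 lower for T2. Over all genes it gave 1024 higher and 395 lower of 12214 for eosinophils, and 4266 and 4232 of 11345 for T2. The block with offsets gave 1 higher and 3 lower in eosinophils, beside 1090 and 805 of 12214 over all genes. Its medians were -0.26, -0.43, -0.22, -0.32, -0.13 and -0.55 in the order above. No paired analysis was possible for BMDEs because their arms share no replicate numbers. With offsets the single gene Ndufa4 turned over (-0.48, and -0.43 also without eosinophil replicate 3). Ndufs8 (-0.54) and Ndufv1 (-0.53) did so with offsets and without replicate 3, a combination chosen after seeing the data. Ndufb7, at 1.65 without offsets, had values with them that were too small to give a direction (-0.00, -0.00 with the block, -0.04 without replicate 3).

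For T2 against resting eosinophils, upper-quartile scaling gave 12 lower, with medians of 0.07 for all, -0.04 for iron-sulfur, 0.08 for the rest, -0.01 for the matrix arm, -0.07 for the membrane arm and 0.66 for the assembly factors. Offsets gave 13 lower without and with the block, with medians of 0.06 and 0.06 for all, 0.05 and 0.05 for the rest, -0.00 and -0.01 for the matrix arm, and 0.64 and 0.64 for the assembly factors. Complex I subunits alone had a median of 0.09. For DFO against control, offsets gave 1 lower, beside 1714 of 12607 over all genes. The medians were then -0.08 for all, -0.09 for the rest, -0.06 for the matrix arm and -0.06 for the membrane arm. The fit of 2 arms gave 20 lower. Offsets gave 2 higher for FAC against control, beside 947 of 12607 over all genes. For FAC against DFO the offsets gave 1 lower and an iron-sulfur median of 0.12, and the fit of 2 arms gave 17 higher. The cause of these shifts was not tested.

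Leaving out single libraries gave these ranges, some with offsets. For eosinophils they were 0 to 24 higher and 0 to 15 lower, with medians of -0.31 to 1.46 for all, -0.53 to 0.56 for iron-sulfur, -0.3 to 1.57 for the rest, -0.39 to 1.39 for the matrix arm, -0.15 to 1.76 for the membrane arm and -0.37 to 0.64 for the assembly factors. For T2 they were 19 to 22 higher and 3 to 8 lower, with medians of 0.11 to 0.26, -0.05 to 0.18, 0.11 to 0.27, -0.03 to 0.2, -0.04 to 0.14 and 0.76 to 0.83 in that order. For DFO against control they were 0 to 12 lower, with medians of -0.18 to -0.08, -0.1 to -0.05, -0.2 to -0.09, -0.17 to -0.06, -0.17 to -0.06 and -0.24 to -0.11. For FAC against control they were 0 to 9 higher, with medians of 0.09 to 0.46, 0.07 to 0.46, 0.11 to 0.46, 0.07 to 0.45, 0.13 to 0.54 and 0.05 to 0.29. For FAC against DFO they were 5 to 37 higher and 0 to 1 lower, with medians of 0.18 to 0.59, 0.14 to 0.54, 0.19 to 0.59, 0.15 to 0.6, 0.18 to 0.64 and 0.19 to 0.39. Over all genes, such fits called 622 to 2545 higher and 125 to 3085 lower for eosinophils. For T2 they called 4182 to 4329 higher and 4076 to 4191 lower. Leaving out a FAC or DFO library gave 239 to 3118 lower genes for DFO against control and 70 to 2314 higher for FAC against control. For FAC against DFO it gave 1929 to 4903 higher and 2321 to 3852 lower genes. Without eosinophil replicate 3 the medians were 0.52 for the rest and 0.36 for the matrix arm. Under DFO against control, without FAC replicate 6 and with offsets 10 were lower, beside 3118 of 12560 over all genes. The membrane-arm median was -0.12 without DFO replicate 11, and the assembly-factor median was -0.12 without DFO replicate 12. Of all counts and medians recomputed, 519 held and 96 moved. Of single genes 885 held, 72 lost and 33 gained a call, 38 moved and 7 turned over, with the small negative values of Ndufb7 counted among the last. A lone library left in an arm was assumed to vary like the others.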
